A study of Mus musculus with 6 samples.

Results

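The genes described here encode the proteins that coat hepatic lipid droplets and the lipases that work at their surface. They were chosen by the known role of their products, with earlier results of these data known. The set held the perilipins Plin2, Plin4 and Plin5 and the CIDE proteins Cidea, Cideb and Cidec. It also held the lipases Pnpla2, Pnpla3 and Lipe and the lipase inhibitor G0s2. Of these 10 genes, all 10 had a row in the table of FPKM values (21948 rows) and 9 had a row in the count table (15454 rows). Those 9 were among the 12411 genes that passed the filter on low counts and were tested. Cidea had no row in the count table, so it has levels here but no test. Pnpla3 passed the filter only through the I/R+Rk2 livers, where it was higher, so its difference was partly set by the filter.

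RNA was sequenced from liver tissue of male C57BL/6 mice aged between 8 and 10 weeks. All of these mice underwent warm ischemia of 75% of the liver followed by reperfusion. Which part of the liver the RNA came from is not given in the sources used here. The 3 I/R livers (labelled HIR) came from mice given the vehicle solution, and the 3 I/R+Rk2 livers (labelled HIR_RK) from mice given ginsenoside Rk2, a triterpenoid saponin of processed ginseng, both before surgery and when reperfusion began. Sham-operated livers and livers without injury were not analysed here, so each value compares injured livers with injured livers. The question was how the liver transcriptome after ischemia and reperfusion differed with Rk2. No modified allele is named for these mice, and the labels do not state the dose given to them, which the study's text names as the higher of its Rk2 doses.

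A lipid droplet is a core of triglyceride and cholesteryl ester inside a phospholipid monolayer, and hepatocytes store and release fatty acids through it. Perilipins cover the surface and limit the access of lipases, CIDE proteins enlarge droplets by passing lipid from smaller to larger ones or help to load lipid onto very low density lipoprotein, and the lipases release fatty acids stepwise from triglyceride. The amount of several coat proteins is known to follow the amount of stored lipid, and PPAR transcription factors, which are activated by fatty acids, are known to regulate many of these genes.

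The droplet genes did not move in a single direction. Cidec and Plin2 were lower in I/R+Rk2 livers, by 7.86-fold and 2.94-fold. Plin5 and Cideb, which belong to the same families, were each higher by 1.71-fold, and Pnpla3, at 0 to 35 counts in I/R livers, had 79 to 210 counts in I/R+Rk2 livers. Pnpla2, the main triglyceride lipase, was 1.22-fold lower, with an adjusted p just below 0.05. Plin4, G0s2 and Lipe did not pass the test. All of these tests used edgeR's quasi-likelihood F test on the deposited counts, adjusted by Benjamini-Hochberg over all 12411 genes.

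Counted over the 9 tested genes, 3 were higher (Plin5, Cideb and Pnpla3) where 20.3% of all tested genes were higher, and 3 were lower (Plin2, Cidec and Pnpla2) where 23.7% of all tested genes were lower. With a fold change above 2 also required, 1 was higher (Pnpla3, background 3.17%) and 2 were lower (Plin2 and Cidec, background 11.4%). The groups did not overlap for 6 of the 9, against 57.4% of all tested genes, so this share was close to the background. Pnpla3 is in each of these counts except those of lower genes. It passed the filter only through the I/R+Rk2 livers, so the counts that hold it were partly set by the filter. It was the only gene higher by more than 2-fold. The median log2 fold change (I/R+Rk2 over I/R) of the 9 was -0.28, beside -0.01 over all tested genes. The median of its absolute size was 0.77, beside 0.44. The genes were chosen with earlier results of these data known, so these contrasts with the background are descriptive. In 6 libraries of liver tissue, fewer cells of a type and less RNA per cell cannot be told apart.

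**Figure D1:**
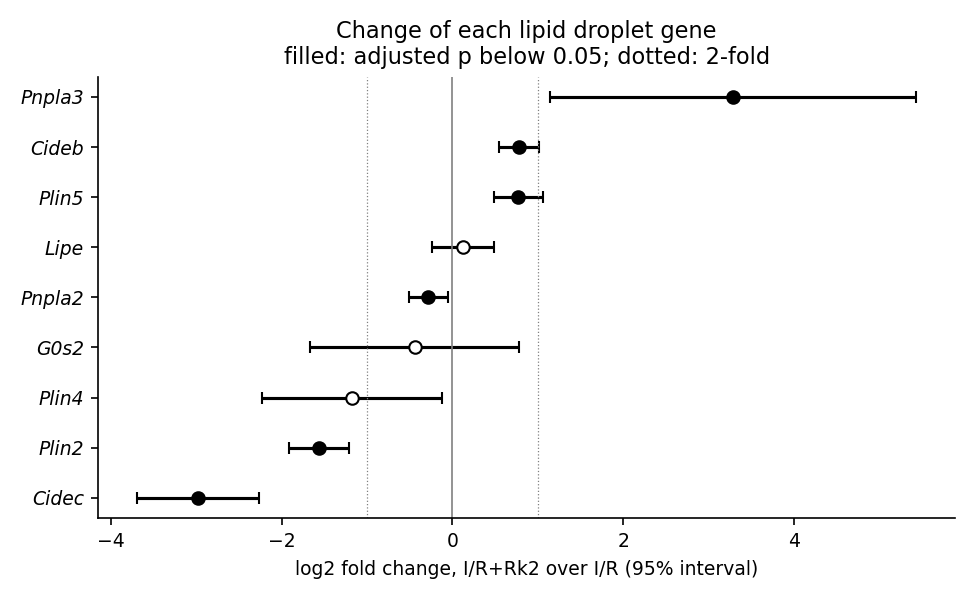
Log2 fold change of each of the 9 tested droplet genes, I/R+Rk2 over I/R (horizontal axis), from the fit across all genes with 3 livers per group. Bars are 95% intervals, filled points have an adjusted p below 0.05 and dotted lines mark a 2-fold change. Cidec and Plin2 lie beyond the line on the left, Plin5 and Cideb lie between the zero line and the line on the right, and the interval of Pnpla3 is the widest, from 1.14 to 5.42.

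The libraries held between 16809613 and 35618074 counts, and 3 counts corresponded to 0.0888 to 0.184 CPM, the level below which a gene could not be told from absent. CPM, the normalised read count, is the count per 1e+06 counts of a library after scaling by edgeR's TMM method. Without TMM scaling, with library size alone, the median log2 fold change over all genes moved from -0.01 to -0.17 and the share of lower genes among those with an adjusted p below 0.05 moved from 53.9% to 72.5%, so small changes depend on the scaling. The liver identity of the samples was clear from 9 hepatocyte markers, of which 5 were higher and 1 was lower. Their summed level was 66391 to 77959 CPM in I/R livers and 100522 to 123219 CPM in I/R+Rk2 livers. Most of this sum was Alb, at 44262 to 52469 CPM in I/R livers and 68876 to 88052 CPM in I/R+Rk2 livers. Leukocyte markers differed widely: the summed level of 8 monocyte markers was 212 to 233 CPM in I/R livers and 11.9 to 20.3 CPM in I/R+Rk2 livers (all 8 lower), and that of 9 neutrophil markers was 495 to 609 and 90.8 to 215 CPM (7 lower). Of 7 Kupffer cell markers, 2 were lower, with sums of 52.8 to 84.1 and 37.1 to 49.2 CPM. Other lists differed too: 3 of 8 stellate cell markers and 3 of 6 cholangiocyte markers were lower and 0 were higher. Of 6 endothelial cell markers, 2 were higher and 3 were lower. The part of these cell types in the droplet gene results was not tested.

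Several droplet genes are also known from fat and muscle, so markers of those tissues were checked. Adipoq and Plin1, which define adipocytes, had 0 counts in 5 of the 6 livers and 5 counts each, 0.307 CPM, in I/R+Rk2 replicate 3. Lep and Aqp7 had no row in the count table, and of the 9 adipocyte markers 3 were tested. Among the brown adipocyte markers Ucp1 and Cidea had no row, Cox8b and Dio2 had no count outside I/R replicate 3, and the sum rested on Elovl3, which hepatocytes also express (164 to 212 CPM in I/R livers, 334 to 645 CPM in I/R+Rk2 livers). Of the 6 skeletal muscle markers, Ckm, Myh4, Myh1 and Tnnt3 had no row in the count table and 1 was tested. The list summed to 3.49 to 4.35 CPM in I/R livers and 1.66 to 2.78 CPM in I/R+Rk2 livers, most of it Acta1. The summed level of the adipocyte list was 1334 to 1588 CPM in I/R livers and 555 to 2825 CPM in I/R+Rk2 livers, nearly all of it from Pck1, which hepatocytes express for gluconeogenesis. Of its 3 tested genes Fabp4 was lower, and Adrb3 and Pck1 did not pass. Adipoq and Plin1 were thus at or near 0 while other genes of the list were present.

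The DNA before the transcription starts is shown for 5 genes, those with an adjusted p below 0.05 other than Pnpla2. Of these, Pnpla3 did not pass in 3 of 15 alternative settings. The reason for showing it is that PPAR factors regulate many droplet genes. They bind as partners of RXR to a direct repeat of AGGTCA with 1 base between the copies. The stretches cover 200 bases, from 250 to 51 bases before the first annotated start (RefSeq, GRCm38.p6, written 5′ to 3′ on the strand of the gene), and capitals mark AGGTCA or, where it lies on the other strand, its reverse complement.
Plin2 (chr4:86670110-86670309, minus strand): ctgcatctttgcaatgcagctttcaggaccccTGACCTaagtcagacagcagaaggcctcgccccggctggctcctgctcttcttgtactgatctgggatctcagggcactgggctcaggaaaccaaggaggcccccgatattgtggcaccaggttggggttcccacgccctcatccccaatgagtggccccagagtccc
Plin5 (chr17:56117599-56117798, minus strand): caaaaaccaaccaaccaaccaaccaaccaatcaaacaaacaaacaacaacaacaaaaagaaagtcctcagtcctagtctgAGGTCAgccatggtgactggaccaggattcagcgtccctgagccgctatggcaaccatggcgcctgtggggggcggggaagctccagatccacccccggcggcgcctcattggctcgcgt
Cidec (chr6:113435811-113436010, minus strand): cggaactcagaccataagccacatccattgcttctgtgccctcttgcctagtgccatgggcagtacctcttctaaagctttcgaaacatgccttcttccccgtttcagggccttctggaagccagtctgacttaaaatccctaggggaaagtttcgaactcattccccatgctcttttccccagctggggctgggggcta
Cideb (chr14:55758475-55758674, minus strand): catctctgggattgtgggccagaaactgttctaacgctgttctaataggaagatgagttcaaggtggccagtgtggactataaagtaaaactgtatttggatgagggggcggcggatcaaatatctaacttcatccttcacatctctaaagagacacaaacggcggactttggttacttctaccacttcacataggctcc
Pnpla3 (chr15:84167566-84167765, plus strand): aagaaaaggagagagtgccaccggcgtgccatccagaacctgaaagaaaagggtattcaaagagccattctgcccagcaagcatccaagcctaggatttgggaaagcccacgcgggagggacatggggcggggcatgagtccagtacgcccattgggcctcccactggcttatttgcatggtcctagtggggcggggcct

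AGGTCA, on either strand, occurred in the stretches of Plin2 and Plin5, 218 and 170 bases before the start. It was not found in those of Cidec, Cideb and Pnpla3, and it occurs in 11.4% of 32817 such stretches in the genome. The gene that was lower and the gene that was higher among the perilipins therefore both held it. The whole direct repeat, which is present in 8 of the 32817 stretches (0.0244%), was in none of the 12 stretches before the annotated starts of the 9 droplet genes with an entry. ACGTG, the core of the sequence that hypoxia-inducible factors bind, and CACGTG, the E-box that contains it and that carbohydrate-response and clock factors bind, were present in 12.9% and 4.34% of stretches and among these genes only in that of Lipe, 155 bases before its first start. A match is a run of letters, not evidence of binding, and its absence from this window says nothing about the factor.

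**Figure D2:**
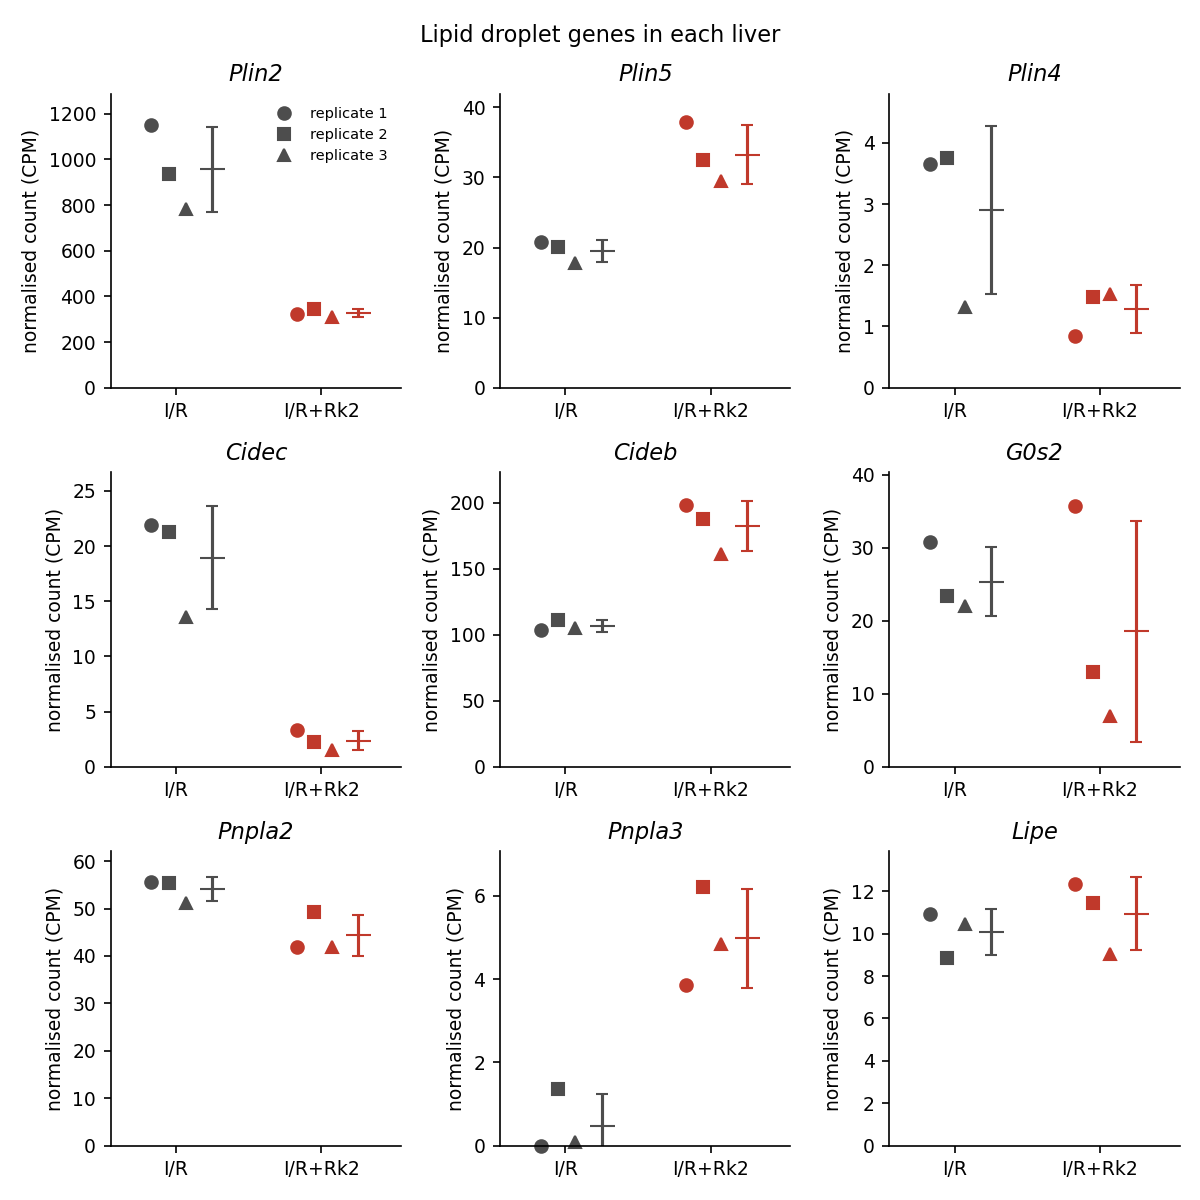
Normalised count (CPM, vertical axes starting at 0, scales differ between panels) of the 9 droplet genes with counts in each of the 6 livers. Symbols are replicates and the bar beside them is the mean with its SD (n = 3). Plin2 and Cidec separate downward and Plin5, Cideb and Pnpla3 upward in I/R+Rk2 livers, while G0s2 spreads from 7.0 to 35.7 CPM within the I/R+Rk2 group.

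Plin2 (chr4:86648386-86670060, minus strand, mm10) encodes the perilipin that coats most droplets in hepatocytes and is degraded when no lipid is bound. Its level was 1151, 935 and 782 CPM in I/R replicates 1 to 3 and 323, 343 and 309 CPM in I/R+Rk2 replicates 1 to 3. Every I/R liver was above every I/R+Rk2 liver, and the I/R+Rk2 livers lay close together (325 ± 17.3 CPM, SD, n = 3) while the I/R livers were spread more widely (956 ± 185 CPM). The log2 fold change was -1.56 (SE 0.15, 95% interval -1.91 to -1.20, adjusted p = 0.000587). In mice, Plin2 transcripts come from macrophages as well as hepatocytes. The monocyte and neutrophil marker sums given above were lower in I/R+Rk2 livers, and 2 of 7 Kupffer cell markers were lower. The part of these cells in the Plin2 difference was not tested.

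Plin5 (chr17:56111601-56117596, minus strand) encodes the perilipin of oxidative tissues, which links droplets to mitochondria and binds Pnpla2 and its co-activator. It had 20.8, 20.0 and 17.8 CPM in I/R livers and 37.9, 32.5 and 29.5 CPM in I/R+Rk2 livers. The groups did not overlap, in the direction opposite to Plin2. Its log2 fold change was 0.77 (SE 0.12, 95% interval 0.48 to 1.06, adjusted p = 0.00303). The hepatocyte marker sum, most of it Alb, was higher in I/R+Rk2 livers too, with 5 of 9 markers higher and 1 lower. Whether this bears on the Plin5 difference was not tested.

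Plin4 (chr17:56100591-56109803, minus strand), the neighbour of Plin5 on chromosome 17, encodes a perilipin of nascent droplets that is abundant in fat and muscle. It was a low-level transcript, with 70, 96 and 33 counts (3.65, 3.75 and 1.32 CPM) in I/R livers and 20, 50 and 25 counts (0.841, 1.48 and 1.54 CPM) in I/R+Rk2 livers. I/R replicate 3 lay among the I/R+Rk2 livers, so the groups overlapped. On the log2 scale the difference was -1.17 (SE 0.45, adjusted p = 0.0693), and it passed the test without that liver (-1.53, adjusted p = 0.0171) and with library size alone (-1.35, adjusted p = 0.0457). Plin4 shares 17 exon bases with Hdgfl2 on the other strand.

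The make-up of the perilipin transcripts, compared per length as FPKM, differed between the groups. Plin2 made up 98.5% ± 0.193 (SD, n = 3) of the summed FPKM of Plin2, Plin4 and Plin5 in I/R livers and 93.6% ± 0.576 in I/R+Rk2 livers. The share of Plin5 was 1.17%, 1.43% and 1.56% in I/R livers and 6.98%, 6.09% and 5.82% in I/R+Rk2 livers. The sum itself was 726 ± 210 FPKM in I/R livers and 236 ± 15.6 FPKM in I/R+Rk2 livers. Within each liver, the log2 ratio of Plin5 to Plin2 FPKM, which does not depend on library scaling, was -6.41, -6.10 and -5.98 in I/R livers and -3.74, -3.95 and -4.01 in I/R+Rk2 livers. The difference of the means was 2.26, with a two-sided exact permutation p of 0.1, the smallest that 3 against 3 livers can give. With Plin1 and Plin3 counted in the sum, the mean Plin5 share was 1.36% in I/R livers and 5.91% in I/R+Rk2 livers, and that of Plin3, whose own log2 fold change was 0.17 (adjusted p = 0.174), was 2.12% and 6.08%. A share can thus be larger because the Plin2 part of the sum was smaller. Plin2 had the most abundant perilipin transcript in all 6 livers.

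**Figure D3:**
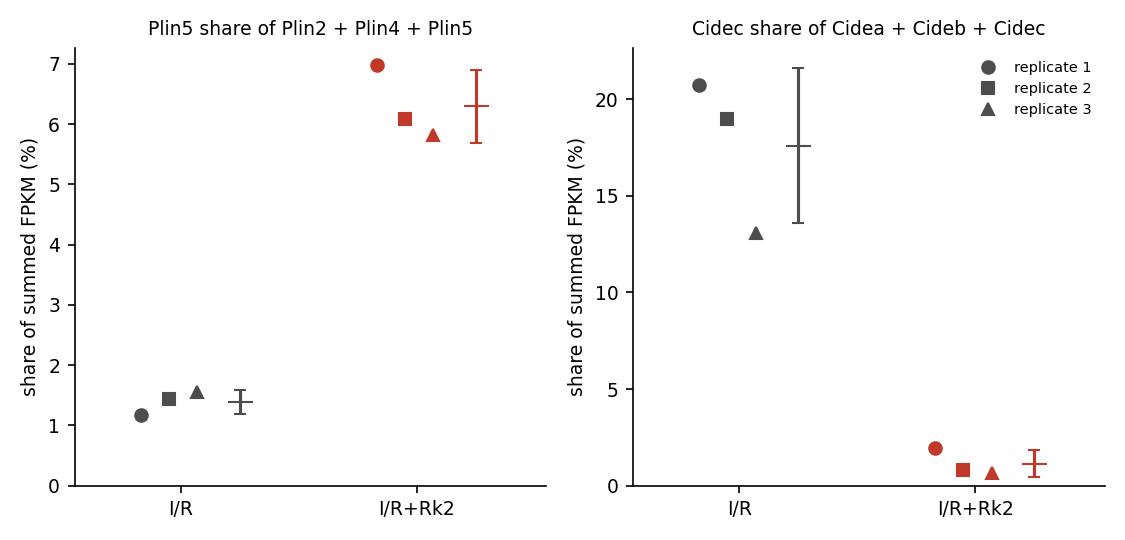
Share of summed FPKM (percent, vertical axes starting at 0) taken by Plin5 in the sum of Plin2, Plin4 and Plin5 (left) and by Cidec among the CIDE genes (right) in each of the 6 livers. Symbols are replicates and bars the mean with its SD (n = 3). The Plin5 share sits between 1.17% and 1.56% in I/R livers and between 5.82% and 6.98% in I/R+Rk2 livers, and the Cidec share is at most 1.93% in I/R+Rk2 livers. In I/R+Rk2 replicates 2 and 3 the Cidec FPKM rests on a longer transcript length (1.86 and 1.84 kb), which lowers the Cidec share there.

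Cidec (chr6:113424634-113435760, minus strand), also called Fsp27, encodes the CIDE protein that fuses droplets into larger ones and is known to rise in fatty liver. Its level was 21.9, 21.3 and 13.6 CPM in I/R livers and 3.32, 2.25 and 1.54 CPM in I/R+Rk2 livers. The lowest I/R liver, replicate 3, was still well above the highest I/R+Rk2 liver. The log2 fold change of -2.97 (SE 0.30, 95% interval -3.69 to -2.26, adjusted p = 0.000707) was the most negative among the tested droplet genes. The counts behind it were 421, 545 and 340 in I/R livers and 79, 76 and 25 in I/R+Rk2 livers.

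Cideb (chr14:55754050-55758458, minus strand), the CIDE protein of hepatocytes, takes part in the lipidation of very low density lipoprotein. It had 103, 112 and 105 CPM in I/R livers and 198, 188 and 161 CPM in I/R+Rk2 livers, with no overlap. The log2 fold change was 0.77 (SE 0.10, 95% interval 0.54 to 1.01, adjusted p = 0.00145). Cideb shares 1136 exon bases with Nop9, a nucleolar RNA-binding protein gene on the other strand, and whether reads were counted by strand is not given in the sources used here. Nop9 itself had 40.5, 47.4 and 35.0 CPM in I/R livers and 42.2, 45.0 and 54.8 CPM in I/R+Rk2 livers (log2 fold change 0.21, SE 0.15, adjusted p = 0.285).

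Cidea (mouse chromosome 18), the CIDE protein of brown fat that also appears in steatotic liver, was listed at 0 FPKM in all 6 libraries. Among the CIDE genes the Cidec share of summed FPKM was 20.7%, 19.0% and 13.1% in I/R livers and 1.93%, 0.83% and 0.66% in I/R+Rk2 livers. The remainder was Cideb, at 82.4% of the sum in I/R livers and 98.9% in I/R+Rk2 livers as group means. The summed CIDE FPKM was 106 ± 10.4 and 135 ± 18.8 (SD, n = 3), so the family sum was not lower while its Cidec part was. In I/R+Rk2 replicates 2 and 3 the Cidec FPKM rests on a longer transcript length than in the other livers, as given next. This lowers the Cidec share in those livers. I/R+Rk2 replicate 1, with a length like that of the I/R livers, had the share of 1.93%.

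The size of the Cidec difference depended on the unit. The ratio of the group means was 7.99 in CPM and 11.7 in FPKM. The units also differ in scaling, since CPM carries TMM scaling and FPKM does not. For G0s2, whose implied length was steady, the ratios were 1.37 in CPM and 1.52 in FPKM. How much of the Cidec gap is scaling was not tested. Dividing each count, as a share of the library total, by the FPKM gives the transcript length that the 2 tables imply, and for Cidec it was 1.05, 1.05 and 1.11 kb in I/R livers and 1.10, 1.86 and 1.84 kb in I/R+Rk2 livers. I/R+Rk2 replicate 1 was thus like the I/R livers and the other two I/R+Rk2 livers stood apart. The GENCODE annotation of GRCm38 lists Cidec transcripts of 1703, 1720, 785 and 376 bases. With 76 and 25 counts behind the longer values, and a length rebuilt by the assembler for each library, no comparison of isoforms was made.

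**Figure D4:**
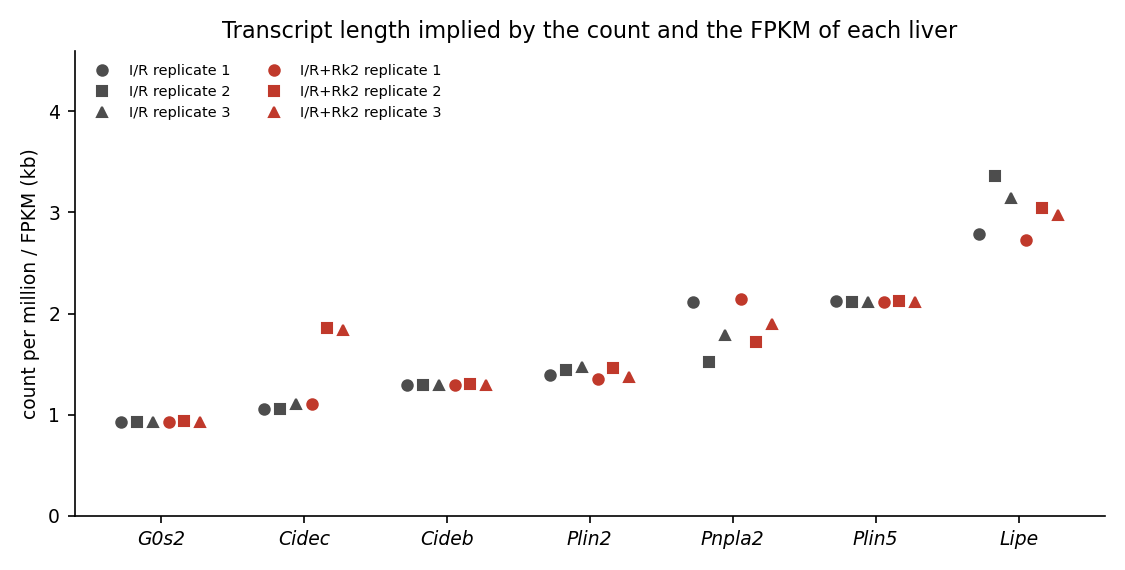
Transcript length implied by the deposited values of 7 droplet genes, computed from the count as a share of the library total and the FPKM (kb, vertical axis), in each of the 6 livers. Genes with a steady length, such as G0s2 and Plin5, form flat rows, while Cidec is near 1.8 kb in 2 of the 3 I/R+Rk2 livers and Pnpla2 ranges from 1.52 to 2.14 kb across both groups.

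Pnpla2 (chr7:141455198-141460743, plus strand) encodes adipose triglyceride lipase, which carries out the first step of triglyceride hydrolysis. It had 55.7, 55.4 and 51.2 CPM in I/R livers and 41.8, 49.4 and 42.0 CPM in I/R+Rk2 livers. The groups did not overlap, but I/R replicate 3 and I/R+Rk2 replicate 2 lay within a few CPM of each other. Its log2 fold change was -0.28 (SE 0.10, 95% interval -0.51 to -0.05, adjusted p = 0.0497). The direction held in all 16 alternative settings, whereas the call was lost in 11 of them (adjusted p between 0.0239 and 0.135 over the 16). Its implied length ranged from 1.52 to 2.12 kb in I/R livers and from 1.72 to 2.14 kb in I/R+Rk2 livers, so its FPKM carries this variation too.

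G0s2 (chr1:193272161-193273217, minus strand) encodes the protein that binds and inhibits Pnpla2. Its level was 30.8, 23.3 and 22.0 CPM in I/R livers and 35.7, 12.9 and 7.0 CPM in I/R+Rk2 livers. I/R+Rk2 replicate 1 was above every I/R liver and the other two were below every I/R liver. The highest liver was 1.40 times the lowest in the I/R group and 5.10 times in the I/R+Rk2 group. This gave a log2 fold change of -0.44 (SE 0.52, 95% interval -1.66 to 0.78, adjusted p = 0.518), an interval that includes falls of more than 2-fold as well as no change. Without I/R+Rk2 replicate 1 the value was -1.33 with an adjusted p of 0.0116, so that liver decided the call. G0s2 has a single annotated transcript of 871 bases, and its implied length stayed between 0.927 and 0.933 kb, so its spread was present in both units.

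The inhibitor was also set against its lipase within each liver. The log2 ratio of G0s2 to Pnpla2 FPKM was 0.33, -0.54 and -0.27 in I/R livers and 0.98, -1.05 and -1.56 in I/R+Rk2 livers. The groups overlapped completely, with I/R+Rk2 livers at both ends of the order. The difference of the means was -0.39 (two-sided exact permutation p = 0.7), and its sign turned when I/R+Rk2 replicate 3 was left out (0.12).

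Pnpla3 (chr15:84167837-84187236, plus strand) encodes a lipid droplet hydrolase related to Pnpla2 whose transcript is known to rise with feeding and with the lipogenic factors Srebf1 and Mlxipl. It had 0, 35 and 2 counts in I/R livers (0, 1.37 and 0.0797 CPM) and 92, 210 and 79 counts in I/R+Rk2 livers (3.87, 6.22 and 4.85 CPM). The groups did not overlap, I/R replicate 3 was below the level that 3 counts give, and I/R replicate 2 held most of the I/R counts. A count of 0 in I/R replicate 1 allows a level of up to 0.156 CPM. As a log2 fold change this was 3.28 (SE 0.91, 95% interval 1.14 to 5.42, adjusted p = 0.0241). The size of this value rested on I/R replicate 2: without it the fitted value was 6.64, set against 0 and 2 counts and therefore no measure of the fold, and with limma on log2(FPKM + 1) it was 0.83. The call was lost with DESeq2 (adjusted p = 0.0790), without I/R replicate 3 (0.0652) and when I/R+Rk2 replicate 2 was omitted (0.0713), and the gene left the test when at least 10 counts were required in every library. It shares 105 exon bases with Gm49513, which has no row under that name in the count table.

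Lipe (chr7:25379527-25398710, minus strand) encodes hormone-sensitive lipase, which acts mainly on diglyceride and is a major lipase of fat. It had 10.9, 8.86 and 10.4 CPM in I/R livers and 12.4, 11.4 and 9.03 CPM in I/R+Rk2 livers, and the groups overlapped. The log2 fold change was 0.12 (SE 0.16, 95% interval -0.24 to 0.49, adjusted p = 0.550) and turned to -0.04 with library size alone. The interval bounds any change to less than 2-fold in either direction at this depth. Lipe shares 918 exon bases with the antisense gene 4732471J01Rik, which has no count row, so reads from both may be combined.

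The order of the levels per length, as mean FPKM over 3 livers, changed mainly through Cidec, Plin5 and Pnpla3. In I/R livers Plin2 led at 715, followed by Cideb at 87.2, Pnpla2 at 32.1, G0s2 at 29.2, Cidec at 18.9, Plin5 at 9.77, Lipe at 3.51, Plin4 at 0.498, Pnpla3 at 0.099 and Cidea listed at 0. Among neighbours in this order, Pnpla2 overlapped with G0s2, and Pnpla3 with both Plin4 and Cidea. In I/R+Rk2 livers it was Plin2 at 221, Cideb at 134, Pnpla2 at 22.2, G0s2 at 19.2, Plin5 at 14.9, Lipe at 3.58, Cidec at 1.62, Pnpla3 at 0.947, Plin4 at 0.193 and Cidea listed at 0. Here G0s2 overlapped with both Pnpla2 and Plin5, and Cidec with both Lipe and Pnpla3. Plin2 and Cideb were thus the most abundant of these transcripts in both groups.

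The genes around the droplet were read from 6 further lists of the pathway, in which 77 of 80 genes were tested. Of these, 32 were higher, 10 were lower and 35 did not pass, so 54.5% changed, where 43.9% of all tested genes changed in either direction. Their median log2 fold change was 0.32. The lists were also chosen with earlier results of these data known. Most lists leaned to higher values, and all but the lipase and esterase list also held lower genes. Genes named from a list are among the 4 with the smallest p, unless stated otherwise.

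Among the other droplet coat and assembly proteins, 6 of 13 tested were higher and 2 were lower (median log2 fold change 0.43). Hilpda, a small hypoxia-inducible inhibitor of Pnpla2 on the droplet, fell from 34.5 ± 5.15 to 13.5 ± 2.43 CPM (log2 fold change -1.34, adjusted p = 0.00137). Bscl2, the seipin of droplet budding, rose from 28.6 ± 2.81 to 46.1 ± 1.52 CPM (0.69, adjusted p = 0.00204). Acsl3, an acyl-CoA synthetase of nascent droplets, rose by 0.89 and Mettl7b, a droplet-associated methyltransferase, by 0.59 on the log2 scale. Thus the Pnpla2 inhibitor that passed the test was Hilpda, while G0s2 did not. Without I/R+Rk2 replicate 1, G0s2 passed edgeR's test too (log2 fold change -1.33, adjusted p = 0.0116). The difference between these genes was not tested.

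Of the neutral lipid synthesis genes, 3 of 13 tested were higher and 2 were lower (median 0.06). Soat1, which makes cholesteryl ester and is abundant in macrophages, fell from 14.1 ± 1.50 to 1.67 ± 0.0879 CPM (log2 fold change -3.08, adjusted p = 0.000197). Gpat3, an acyltransferase of the glycerol phosphate pathway, fell by 1.82 on the log2 scale. Agpat2 and Dgat2, which carry out later steps of triglyceride synthesis in hepatocytes, rose by 1.19 and 0.69 on that scale. The monocyte marker sum, lower in the same livers, is given above, and its part in these values was not tested.

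Of the other lipases, esterases and cofactors, 9 of 15 were higher and 0 were lower by edgeR's test (median 0.52), with 11 higher and 1 lower at an unadjusted p under 0.05. The lower gene, named after its value was seen, was Lpl, the lipoprotein lipase, with a log2 fold change of -0.44 (adjusted p = 0.0806). The count of lower genes was also 0 with DESeq2 (10 higher) and with limma on log2(FPKM + 1) (6 higher). Lipa, the lysosomal acid lipase, rose from 130 ± 9.91 to 237 ± 22.3 CPM (log2 fold change 0.87, adjusted p = 0.00113). The carboxylesterases Ces1d and Ces1f, which hydrolyse triglyceride in the endoplasmic reticulum, rose by 0.78 and 0.62 on the log2 scale. Aadac, an endoplasmic reticulum deacetylase that also acts on neutral lipid, rose by 0.57 on that scale. These directions differed from that of Pnpla2, whose value was -0.28.

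Of the genes for fatty acid uptake, activation and lipoprotein assembly, 7 of 12 were higher and 1 was lower (median 0.40), whereas 3 of 11 were higher and 1 was lower with limma on log2(FPKM + 1). Acsl1, the main acyl-CoA synthetase of hepatocytes, rose from 261 ± 40.8 to 726 ± 16.7 CPM (log2 fold change 1.48, adjusted p = 0.00042). On the log2 scale Fabp1, the hepatocyte fatty acid binding protein, rose by 0.83, and Tm6sf2, needed to load lipid onto very low density lipoprotein, by 0.84. The lower gene was Fabp4, the fatty acid binding protein of fat, macrophages and endothelium, which fell by 1.41 on that scale. Fabp4 also stands in the adipocyte marker list, where Adipoq and Plin1 were at or near 0.

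Of the regulators, 3 of 12 were higher and 3 were lower (median 0.05). On the log2 scale Hif1a and Epas1, the hypoxia-inducible factors, fell by 1.45 and 0.96. Mlxipl and Nr1h3, a carbohydrate-response factor and the liver X receptor, rose by 1.05 and 0.84 on that scale. Ppara and Pparg, named for their role after their values were seen, had log2 fold changes of 0.06 (adjusted p = 0.869) and -0.49 (adjusted p = 0.0354), so Pparg was the remaining lower gene. The sign of the Ppara value turned in 7 of 16 alternative settings and the call of Pparg was lost in 6, among them DESeq2.

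The PPAR alpha targets outside the droplet were also divided, with 4 of 12 higher and 2 lower (median 0.26). Ehhadh, a peroxisomal oxidation enzyme, rose from 177 ± 42.2 to 338 ± 93.6 CPM (log2 fold change 0.93, adjusted p = 0.0176), with a call that was lost in 4 of 16 alternatives. Pdk4, which restrains pyruvate oxidation, and Angptl4, which inhibits lipoprotein lipase, fell by 0.89 and 0.94 on the log2 scale. Plin2, Plin5 and Cidec, which are known PPAR targets at the droplet, were divided as well, with Plin5 higher and the other two lower.

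**Figure D5:**
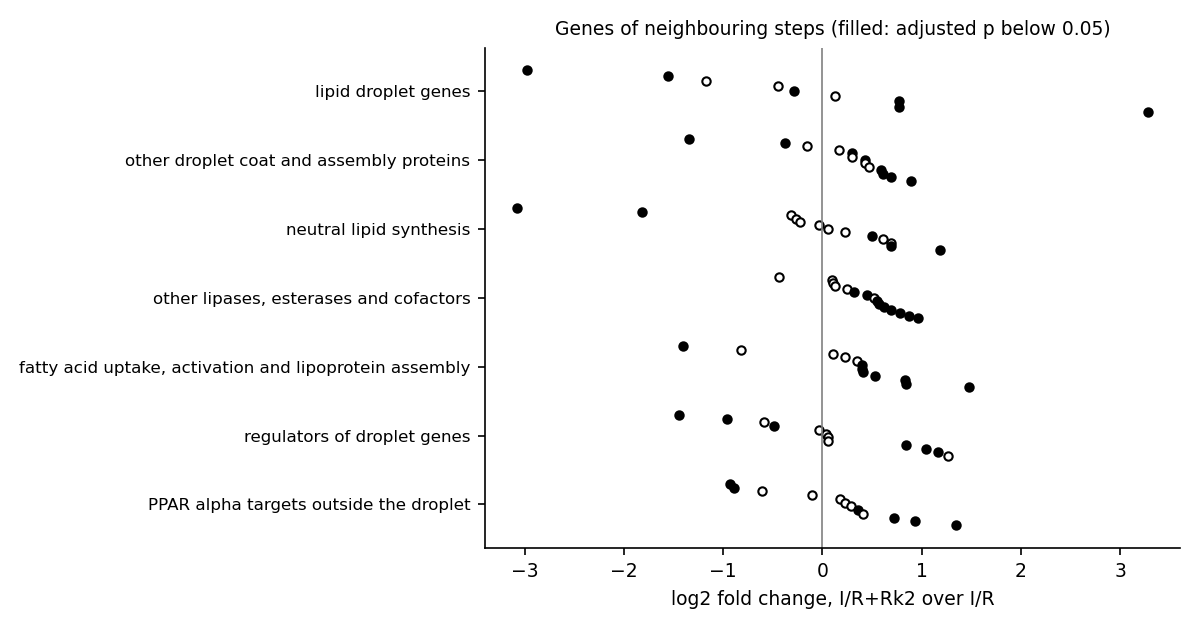
Log2 fold change (I/R+Rk2 over I/R, horizontal axis) of every tested gene of the droplet set and of the 6 pathway lists, each point a gene, filled where the adjusted p is below 0.05. The lipase and esterase list has 9 filled points, all to the right of 0, and each of the other lists has filled points on both sides, with Soat1 at -3.08 the farthest to the left.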

How the data were processed

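RNA from 3 I/R and 3 I/R+Rk2 livers was sequenced on a BGI platform after library preparation with an MGIEasy kit from 250 ng of RNA. Per the submitters' processing notes, reads were checked with FastQC 0.11.5, aligned with HISAT2 2.2.1 and quantified with StringTie 1.3.3 on mm10. The annotation and the strand setting are not given in the sources used here. The authors deposited a table of counts per gene, not normalised, and a table of FPKM values, normalised by the authors to length and depth. The counts summed to between 16809613 and 35618074 per library. Floors cover counting error only, and the 95% intervals of fold changes come from the fit and include the spread between livers.

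Counts were tested with edgeR 4.0.16 in R 4.3.3 (quasi-likelihood F test, filterByExpr, TMM, Benjamini-Hochberg over 12411 genes, no covariate), and a gene was called at an adjusted p below 0.05, with a fold change above 2 where stated. FPKM was used to compare genes, with exact permutation tests on the log2 ratios (scipy 1.17.1). DESeq2 1.42.0, limma 3.58.1 on log2(FPKM + 1) or log2(FPKM + 0.1), other scalings and filters, a replicate block and the omission of each library were the alternatives. The fits were checked on simulated counts in which few genes were changed, equally often in each direction. That setting is simpler than these data, so the check covers the code and not the scaling of these livers. Coordinates and shared exons came from GENCODE on GRCm38 and the stretches before starts from RefSeq on GRCm38.p6, with an entry for 9 of the 10 genes. The members and lists were chosen with earlier results of these data known. Of each pathway list at most the 4 genes with the smallest p were named, and 2 regulators were added for their role. A gene that this rule picks is not reported here. Nothing says that the libraries of a group are separate litters or batches, so the tests use only the spread between these livers. For edgeR that spread was estimated with information shared across genes. The exact permutation p-values come from reassigning the livers to the groups.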

Additional observations from a re-analysis of the deposited data

How the results depend on the processing

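Plin2, Plin5, Cideb and Cidec kept their direction and their call in all 16 alternatives. The tested droplet genes called ranged from 5 to 6 and those past a 2-fold change from 2 to 4 when each liver was left out, with 4 called by DESeq2 and 7 with library size alone. Across all genes, 1813 passed both limits in the edgeR fit, against 942 with limma on log2(FPKM + 1) and 921 without a filter on FPKM, where the added constant shrinks low genes. With the limma fits 72.3% to 72.8% of called genes were lower, beside 53.9%. The G0s2 to Pnpla2 log2 ratio difference ran from -1.15 to 0.12 when each liver was left out, and the latter value, without I/R+Rk2 replicate 3, had the opposite sign. Lipe was -0.038 with library size alone (adjusted p = 0.890). Ppara had the opposite sign with library size alone (-0.13), with limma on FPKM (-0.12 in each of 3 fits), and without I/R replicate 2 (-0.05), I/R replicate 3 (-0.10) or I/R+Rk2 replicate 3 (-0.13), with a range of -0.13 to 0.39 when each liver was left out. The causes were not tested.

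Replicate numbers did not pair the livers: same-numbered deviations correlated at -0.03, 0.05 and -0.02. With the number as a block, 5 droplet genes (Pnpla2 not among them, adjusted p = 0.0615), 40 pathway genes and 4713 of all genes were called. In the paired permutation the Plin5 to Plin2 ratio had an exact p of 0.25, the smallest that 3 pairs can give. The G0s2 to Pnpla2 ratio had an exact p of 0.75.

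Counts below about 100, as for Plin4 in every liver, Pnpla3 in every liver but I/R+Rk2 replicate 2, and Cidec in I/R+Rk2 livers, limit precision.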

Other observations

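I/R+Rk2 replicate 1, in which G0s2 was highest, also stood apart for other lipid and glucose genes, which were chosen after their values were seen. Lpin1, a phosphatidate phosphatase of triglyceride synthesis that also acts with PPAR alpha in the nucleus, had 55.7, 56.8 and 60.4 CPM in I/R livers and 38.8, 112 and 113 CPM in I/R+Rk2 livers. Lpin2, its hepatic relative, had 196, 182 and 210 CPM and then 126, 259 and 227 CPM. Pck1, the gluconeogenic carboxykinase, had 1556, 1303 and 1408 CPM in I/R livers and 541, 1791 and 2811 CPM in I/R+Rk2 livers. For each of these 3 genes, replicate 1 was below every I/R liver, and the other two I/R+Rk2 livers were above every I/R liver.

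Ppard, the PPAR of broad tissue distribution, had 4.12, 14.8 and 13.6 CPM in I/R livers and 43.3, 25.6 and 9.64 CPM in I/R+Rk2 livers (log2 fold change 1.27, SE 0.60, adjusted p = 0.126), with its highest value in the same liver as G0s2. Elovl3, a fatty acid elongase, had 164, 212 and 191 CPM in I/R livers and 645, 579 and 334 CPM in I/R+Rk2 livers, with no overlap.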
